A study of Mus musculus with 16 samples.

Results

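The genes Rad21, Kat2b, Yes1, Otud4, Ide, Ssr4, Nampt, Dab2 and Mcl1, were examined, 9 in all, for how far the probe sets of 1 gene differed from each other after pressure overload of the mouse heart. A probe set is a group of short probes on the array that is summarised into 1 signal, and several probe sets can read different stretches of the same transcript. Every probe set whose platform annotation gave exactly 1 symbol, equal to one of these genes, was taken. This gave 27 of the 22690 probe sets on the array, for 9 of the 8272 genes with a named probe set above the signal limit used here. That limit, a signal of 130.8, left out the dimmest 40% of probe sets, and all 27 passed it on their mean over the arrays. The genes had been chosen by their measured signals on these same arrays: by differences between probe sets in the change from sham to banded hearts and, for Dab2 and Mcl1, probably by a difference between the sexes. Their changes after banding are therefore given as descriptions. Where counts past the threshold are printed for them, they stand beside the share over all probe sets and support nothing.

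The mice were C57BL/6J, aged 12 to 14 weeks, and total RNA of the left ventricle was taken 14 days after surgery. Transverse aortic constriction (TAC) places a band around the aortic arch, so that the left ventricle pumps against a raised pressure. The 4 groups were males after a sham operation, males after TAC, females after a sham operation and females after TAC, with 4 arrays in each, and no genetic modification is named for any of them. Arrays are numbered as in the sample titles, which run 1, 2, 4 and 5 in male TAC, 1, 2, 3 and 5 in female TAC and 1 to 4 in both sham groups.

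A gene can give transcripts that differ in their first exon, in splicing or in the position of the poly(A) tail, and probes on such arrays are mostly placed towards the 3′ end of the transcript. Labelling started from an oligo(dT) primer at the tail, so probes far from the tail also depend on how intact the RNA is. The name of a probe set tells how its probes were designed. A name ending in _at marks probes meant to be unique, _a_at probes shared by transcripts of 1 gene, _s_at probes shared by several sequences, and _x_at a set in which some probes may bind other transcripts. Among the 27 probe sets, 16 were of the first kind, 4 of the second, 3 of the third and 4 of the fourth.

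The deposited signals had already been scaled, with a median of 189.7 to 222.3 per array. The summed signal of the 9 cardiomyocyte markers looked at went from 339169–407233 in male shams to 278680–337869 in male TAC. In females it went from 346336–376672 to 244877–309172. All 9 markers were above the signal limit. Of these, 5 fell after TAC in males and 7 fell in females, while 4 of 7 fibroblast markers rose in males and 2 in females, and the summed fibroblast signal went from 14993–17105 to 18516–30438 in males and from 16368–18580 to 17361–24281 in females. Of 8 macrophage markers 3 rose in males and 1 in females, no endothelial marker of 6 passed the test, and Adipoq and Lep of adipocytes were below the limit. Of 3 atrial markers Myl7 and Sln were below the limit, Myl4 rose in both sexes, and their sum went from 304.2–409.4 to 763.8–2379.8 in males and from 267–502.8 to 338.4–2299 in females. Of 5 smooth muscle and pericyte markers above the limit 2 rose in males and 1 fell in females, with sums of 12719–17024 and 14778–16867 in male sham and TAC and 18274–21425 and 12629–17979 in female sham and TAC. The part of these cell types in the values below was not tested. In tissue RNA, fewer cells of a type and less RNA per cell cannot be told apart. Measures of RNA quality moved with the operation: the Gapdh control, read as 3′ over 5′ signal, went from 0.885 ± 0.039 (SD, n = 4) to 1.08 ± 0.07 with TAC in males and from 0.865 ± 0.058 to 0.989 ± 0.030 in females, with no overlap between TAC and sham in either sex. The log2 signal of the 5′ 18S rRNA control was 13.35 ± 0.50 and 10.34 ± 1.89 in sham and TAC males and 11.96 ± 0.91 and 10.20 ± 0.60 in sham and TAC females, and 1 male TAC array reached 13.16.

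Within each gene the probe set with the highest mean over all 16 arrays served as the reference, called the brightest here, and was compared with the probe set whose TAC change differed most from it, called the farthest. The gap is the log2 change of the farthest minus that of the brightest. All changes are differences of group means on the log2(signal + 16) scale. In 6 of the 9 genes (Kat2b, Rad21, Yes1, Otud4, Ide and Ssr4) the farthest probe set was lower after TAC by at least 1 log2 unit more than the brightest, averaged over the sexes. The median size of the gap was 1.29 in males and 1.72 in females over the 9 genes, against 0.41 and 0.42 over the 2834 genes with at least 2 probe sets above the limit. Because the genes were chosen for such differences, this contrast describes the choice and nothing more. The farthest sets of Kat2b, Yes1, Ide, Ssr4 and Nampt were under the signal limit on most TAC arrays and passed it through the shams, so the sizes of their changes and gaps depend on the pseudocount of 16 and no fold is given for them.

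**Figure D1:**
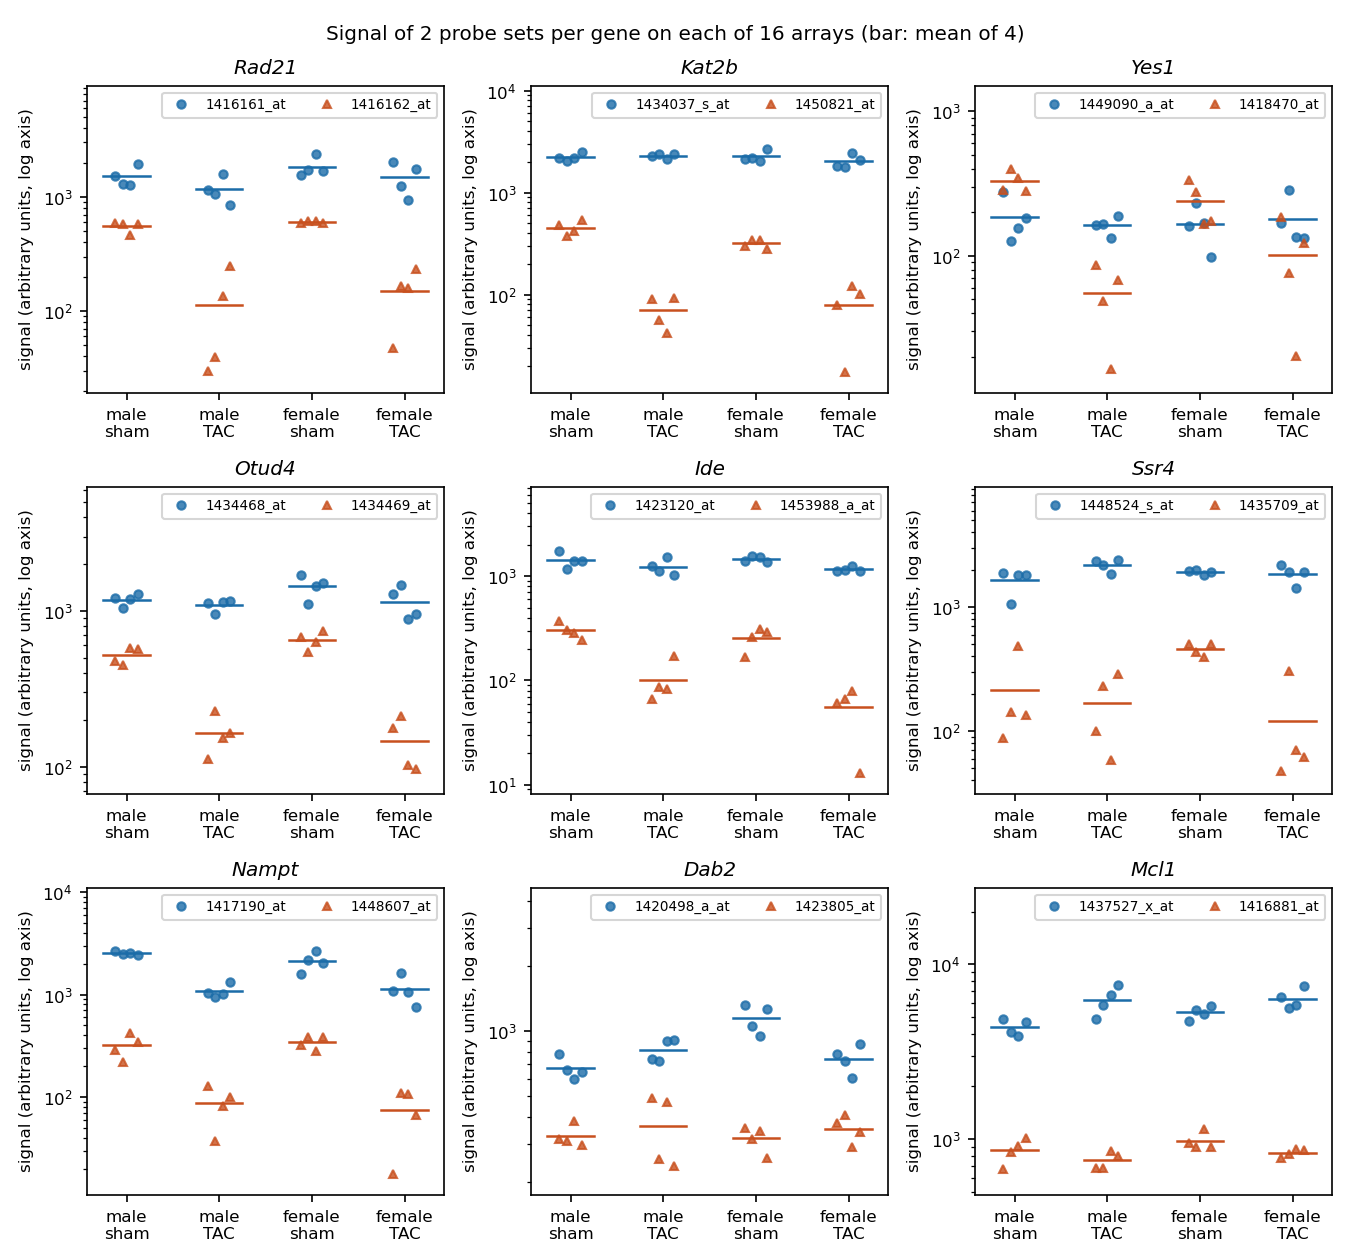
Signal (log axis) of the brightest and the farthest probe set of each of the 9 genes on all 16 arrays, by group. For Kat2b, the brightest set lies between 1765.5 and 2690.7 on every array, while the farthest set drops from 281.6–533.2 in the shams to 17.4–120 in TAC.

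Rad21 encodes the cleavable subunit of cohesin, the ring that holds sister chromatids together and shapes chromatin loops. Its probe set 1416162_at read 586.6, 578.4, 466.8 and 575.7 on the male sham arrays and 29.7, 39.8, 135.2 and 246.7 on the male TAC arrays. In females the signals were 593.2, 620.9, 615.1 and 585.4 in shams and 47.0, 166.6, 157.8 and 231.1 in TAC. No TAC array reached any sham array, and 3 of 8 TAC arrays lay under the signal limit. The log2 change was -2.50 ± 0.44 (SE) in males and -2.05 ± 0.44 in females. No fold is given, because its size depends on the pseudocount where TAC arrays lie under the limit. Over the alternatives the change lay between -2.96 and -1.72 in males and between -2.31 and -1.60 in females. The brightest set, 1416161_at, comes from the same sequence record, yet its groups overlapped in both sexes, at 1270.9 to 1956.2 in male shams against 856.7 to 1589.5 in male TAC and at 1562.2 to 2356.3 in female shams against 947.7 to 2012.3 in female TAC. Its changes were -0.39 and -0.33. The third set, 1455938_x_at, was dim, with group means of 182.7 to 280.0, and its changes pointed the other way, at 0.31 in males and 0.21 in females, with overlapping groups. The gap was -2.11 ± 0.56 in males and -1.72 ± 0.56 in females. It was -1.15 in females without female TAC 1, and -1.19 in males with the 18S signal as a covariate. The log2 ratio of 1416162_at to 1416161_at overlapped between the male groups, at -1.73 on male TAC 5 against -1.74 on male sham 4. In females this ratio did not overlap between TAC and sham.

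Kat2b encodes a lysine acetyltransferase (PCAF) that acts on histones and other proteins. Its probe set 1450821_at read 481.5, 372.8, 415.0 and 533.2 on the male sham arrays and 90.9, 56.8, 41.5 and 91.4 on the male TAC arrays. In females the shams had 301.6, 342.3, 343.4 and 281.6, and the TAC arrays 79.1, 17.4, 120.0 and 101.4. The groups were far apart, and all 8 TAC arrays were under the signal limit. That limit marks the dimmest 40% of probe sets, and whether signals under it exceed background was not tested. On the log2(signal + 16) scale the changes were -2.47 and -1.98 in males and females, and their true size is not measured. The brightest set, 1434037_s_at, was steady, with means of 2224 ± 190 (SD, n = 4) and 2302 ± 130 in male sham and TAC and of 2265 ± 289 and 2019 ± 295 in female sham and TAC. The gap was -2.53 ± 0.32 in males and -1.81 ± 0.32 in females. It was -2.0 and -1.31 with a pseudocount of 64 and -2.78 and -2.11 with 1. Its ratio of the 2 probe sets was lower on every TAC array than on any sham array of the same sex.

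Kat2b and Dab2 are the genes for which the RefSeq promoter table lists 2 transcription starts, so these are shown as the places where alternative first exons begin. Of the other genes, Yes1, Otud4, Ide, Ssr4, Nampt and Mcl1 have 1 listed start each. The sequences are the 100 bases before each start on the plus strand of GRCm38.p6, from RefSeq, at chr17:53566871-53566970 and chr17:53584026-53584125 for Kat2b and at chr15:6299689-6299788 and chr15:6386648-6386747 for Dab2, with no bases capitalised. Which probe set reads a transcript from which start was not tested.
Kat2b start 1: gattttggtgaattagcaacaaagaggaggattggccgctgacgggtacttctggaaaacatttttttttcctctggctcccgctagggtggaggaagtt
Kat2b start 2: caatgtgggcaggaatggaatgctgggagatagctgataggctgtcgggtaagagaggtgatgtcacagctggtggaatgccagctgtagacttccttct
Dab2 start 1: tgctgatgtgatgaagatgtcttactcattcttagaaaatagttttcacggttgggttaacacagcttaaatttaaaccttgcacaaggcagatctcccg
Dab2 start 2: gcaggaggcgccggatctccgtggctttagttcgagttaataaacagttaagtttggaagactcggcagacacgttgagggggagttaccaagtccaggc
The windows hold 47% and 52% G or C for the 2 Kat2b starts and 39% and 53% for the 2 Dab2 starts, with 3, 1, 2 and 6 CpG dinucleotides in that order. RefSeq holds 2 curated mRNAs for Kat2b and 5 for Dab2, against 4 for Ssr4, 3 for Yes1, 2 for Otud4 and 1 each for Rad21, Ide, Nampt and Mcl1. With predicted transcripts counted too, RefSeq holds 9 for Dab2, 5 for Kat2b, 4 for Ssr4, 3 each for Rad21, Yes1 and Otud4, 2 for Mcl1 and 1 each for Ide and Nampt. The part of the number of transcripts in the gaps was not tested.

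Yes1 encodes a Src-family tyrosine kinase. Both of its probe sets were dim and come from 1 sequence record. Probe set 1418470_at read 284.8, 399.7, 344.4 and 278.7 on the male sham arrays and 86.9, 48.8, 16.4 and 67.8 on the male TAC arrays. In females it had 337.0, 274.6, 166.8 and 174.2 in shams and 185.1, 75.8, 20.2 and 122.7 in TAC. The male groups did not overlap, whereas female TAC 1 lay above the lowest 2 female shams. All 4 male and 3 of 4 female TAC arrays were under the signal limit. The changes on the log2(signal + 16) scale were -2.38 ± 0.45 and -1.32 ± 0.45. The set 1449090_a_at had changes of -0.13 and 0.11, with group means of 162.3 to 185.5. It was the dimmer set in shams, at means of 185.5 against 326.9 in males and 165.0 against 238.2 in females. It counts as the brightest over all 16 arrays only through the TAC arrays, and the sign of the gap rests on that choice. The gap was -2.25 ± 0.47 in males and -1.42 ± 0.47 in females, and -1.63 and -1.02 with a pseudocount of 64.

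Otud4 encodes a deubiquitinase of the OTU family. Its 2 probe sets come from 1 sequence record. Probe set 1434469_at read 476.2, 449.3, 579.5 and 571.6 on the male sham arrays and 111.2, 226.3, 152.3 and 164.3 on the male TAC arrays. In females it had 676.6, 542.1, 627.9 and 742.2 in shams and 176.8, 210.8, 103.0 and 96.3 in TAC. Every TAC array was below every sham array, and 5 of 8 TAC arrays stayed above the signal limit. The log2 change was -1.61 ± 0.24 in males and -2.08 ± 0.24 in females. The brightest set, 1434468_at, had overlapping groups, with changes of -0.10 and -0.33. The gap was -1.50 ± 0.22 in males and -1.75 ± 0.22 in females, with the smallest SE among the 6 genes with a mean gap of at least 1. With the Gapdh ratio as a covariate it was -1.92 and -2.04, and with the 18S signal -1.48 and -1.74.

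Ide encodes insulin-degrading enzyme, a zinc metallopeptidase of the M16 family. Its 4 probe sets formed a series of changes. The dimmest, 1453988_a_at, read 373.0, 306.6, 284.8 and 244.5 on the male sham arrays and 67.1, 86.3, 82.6 and 169.8 on the male TAC arrays. In females it had 167.3, 260.2, 312.6 and 289.9 in shams and 61.3, 66.5, 80.0 and 13 in TAC. Groups were apart in both sexes, and 7 of 8 TAC arrays were under the limit. Its changes on the log2(signal + 16) scale were -1.50 ± 0.37 and -2.04 ± 0.37. The set 1423121_at had changes of -0.80 ± 0.20 and -0.58 ± 0.20. The brightest, 1423120_at, which comes from the same record as 1423121_at, had -0.21 and -0.32, with groups apart in females only. The set 1435140_at had -0.21 in males and 0.37 in females, where its signals of 733.9 to 847.7 in shams and 887.2 to 1230.9 in TAC did not overlap. In females, 1453988_a_at thus lay below and 1435140_at above the sham level with groups apart, where 19.9% of all probe sets had groups apart. The change of 1435140_at in females did not pass the test in the main fit or in any of 28 alternatives. The gap of 1453988_a_at to the brightest was -1.29 ± 0.36 in males and -1.72 ± 0.36 in females, -0.97 and -1.13 with a pseudocount of 64, and -0.48 in males with the 18S covariate.

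Ssr4 encodes the delta subunit of the signal sequence receptor, which sits beside the translocon of the endoplasmic reticulum. Its probe set 1435709_at read 502.5, 433.0, 397.8 and 507.1 on the female sham arrays and 47.2, 307.4, 70.4 and 61.3 on the female TAC arrays. In males it had 87.8, 142.8, 484.8 and 135.5 in shams and 99.9, 229.4, 58.5 and 290.0 in TAC. Only the female groups were apart, and 1 male sham stood near the female sham level. In females 3 of 4 TAC arrays were under the signal limit. The change on the log2(signal + 16) scale was -2.13 ± 0.52 in females and -0.24 ± 0.52 in males. The brightest set, 1448524_s_at, changed by 0.44 and -0.07, and the dim set 1427096_s_at by -0.42 and -0.45. The gap was -2.06 ± 0.54 in females and -0.68 ± 0.54 in males. The male value was -1.04 without male sham 1, -0.39 without male TAC 4, -0.26 without male sham 3, -1.55 with the Gapdh covariate and -0.37 with the 18S covariate. The female minus male difference of the gaps, -1.39 ± 0.76, is given as a description.

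Nampt encodes the enzyme that makes nicotinamide mononucleotide in the salvage route to NAD. Here both probe sets were lower after TAC and came from 1 sequence record. The brightest, 1417190_at, read 2636.7, 2497.9, 2536.6 and 2445.5 on the male sham arrays and 1041.2, 956.2, 1010.9 and 1316.3 on the male TAC arrays. In females it had 1575.6, 2178.2, 2654.5 and 2019.0 in shams and 1076.9, 1623.5, 1048.3 and 759.6 in TAC. The male groups were apart, and female TAC 2 lay just above female sham 1. The mean was 2.34-fold lower in males (-1.22 ± 0.18) and 1.89-fold lower in females (-0.92 ± 0.18). The farthest set, 1448607_at, had 221.6 to 425.7 in male shams against 37.7 to 128.2 in male TAC, and 281.2 to 386.3 in female shams against 17.9 to 111.1 in female TAC. All 8 of its TAC arrays were under the signal limit. Its changes on the log2(signal + 16) scale were -1.75 ± 0.39 and -2.13 ± 0.39. Both sets were thus lower in TAC, and whether the sizes differ cannot be read from signals under the limit. The gap was -0.53 ± 0.38 in males and -1.21 ± 0.38 in females. The male gap was -0.30 without male TAC 2, -0.21 with the Gapdh covariate and -0.16 with a pseudocount of 64. The female gap was -0.79 without female TAC 1 and -0.71 with a pseudocount of 64.

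Dab2 encodes an adaptor that links lipoprotein receptors to clathrin in endocytosis. Its brightest set, 1420498_a_at, read 778.6, 661.0, 597.7 and 644.2 on the male sham arrays and 1323.6, 1058.3, 949.0 and 1272.0 on the female sham arrays. After TAC it had 742.2, 725.1, 895.6 and 911.8 in males and 786.1, 726.9, 602.7 and 867.0 in females. The female shams stood above all other arrays. The change was 0.28 ± 0.15 in males and -0.61 ± 0.15 in females, with TAC and sham not overlapping in females. The set 1423805_at had group means of 317.7 to 361.7 and changes of 0.08 and 0.14, and the dim set 1430604_a_at had changes of -0.09 and -0.02. The gap of 1423805_at to the brightest was -0.20 ± 0.26 in males and 0.76 ± 0.26 in females. The male gap was within its SE of 0 and moved between -0.41 without male TAC 1 and 0.02 without male TAC 5. It was -0.12 without male TAC 2, -0.07 without male sham 3, -0.36 with the Gapdh covariate and -0.75 with the 18S covariate, and the female gap was 0.44 with the 18S covariate.

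Mcl1 encodes an anti-apoptotic protein of the BCL2 family. Of its 6 probe sets, 1416880_at, 1416881_at and 1448503_at, come from 1 sequence record, and the other 3 are _x_at sets with no record in the annotation. The set 1456381_x_at read 1361.0, 873.6, 1067.1 and 890.4 on the male sham arrays and 1834.3, 1574.9, 1500.0 and 1805.4 on the male TAC arrays. In females it had 1233.8, 1286.3, 1029.4 and 1102.2 in shams and 1828.8, 1756.3, 1426.2 and 1836.1 in TAC. All TAC arrays were above all shams of the same sex, with changes of 0.69 ± 0.14 and 0.55 ± 0.14. The brightest set, 1437527_x_at, changed by 0.50 in males, where groups were just apart, and by 0.26 in females, where they overlapped. The 3 unique sets on the shared record had changes of -0.18 to 0.07 in males and -0.20 to 0.10 in females. The _x_at sets thus lay above the unique sets in male TAC against sham, while in females 1456243_x_at changed by 0.02. The gap of 1416881_at to the brightest was -0.68 ± 0.20 in males and -0.46 ± 0.20 in females.

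**Figure D2:**
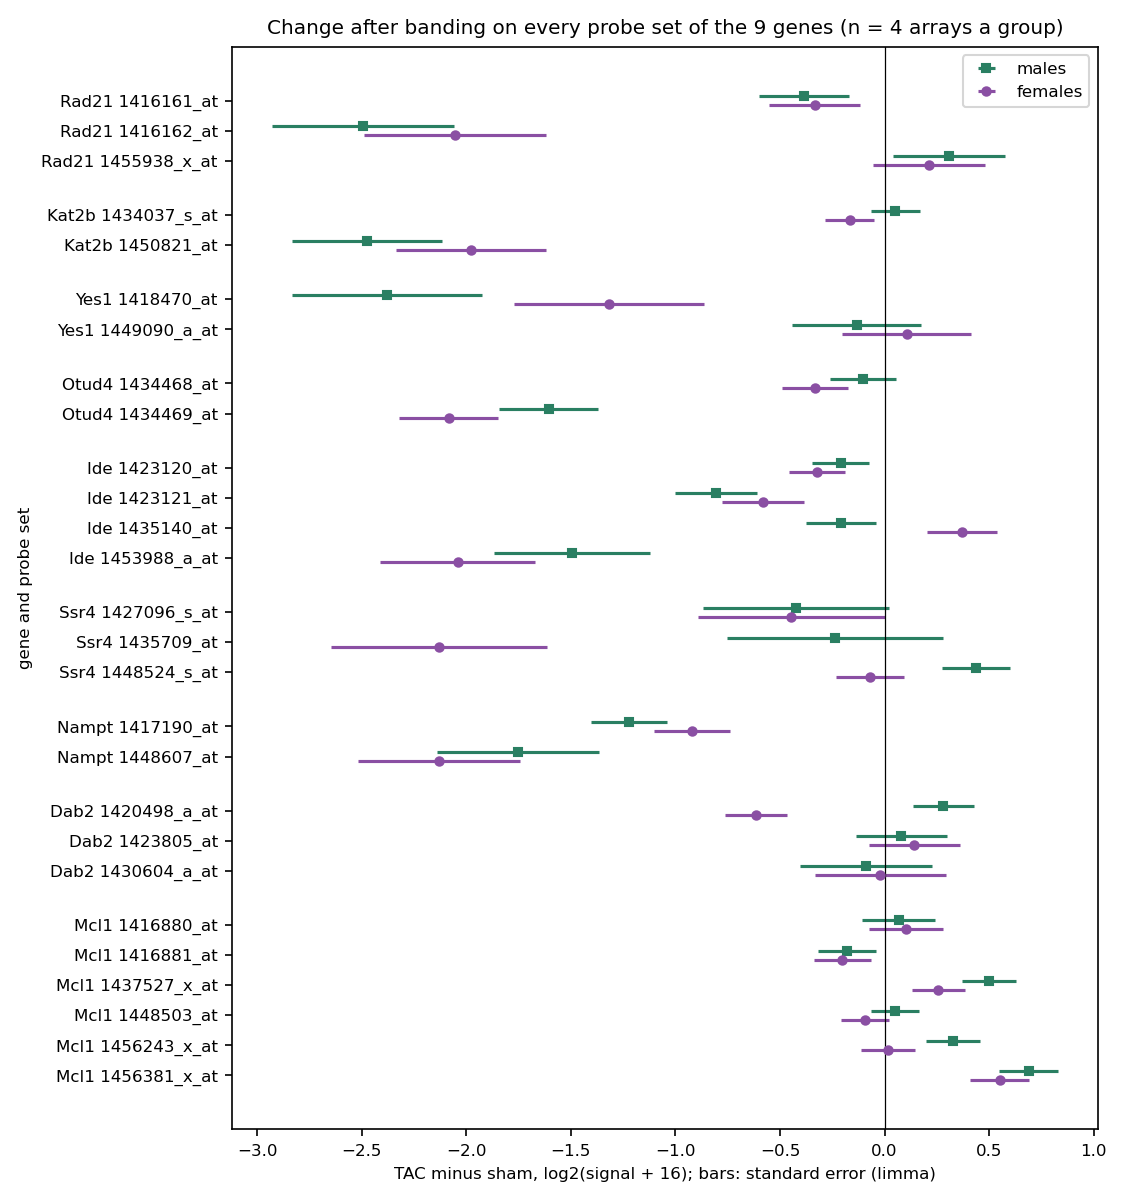
Log2 change, TAC minus sham, of all 27 probe sets by gene, in males and females, with bars of 1 SE. The Kat2b sets lie at 0.05 and -2.47 in males, while those of Mcl1 lie between -0.20 and 0.69 in both sexes.

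Over the 27 probe sets, 10 passed the test of TAC against sham in males, 2 higher (both of Mcl1) and 8 lower, where 17.8% of the 13576 probe sets tested passed it, 8.07% higher and 9.77% lower. In females 9 passed, 1 higher and 8 lower, where 15.1% passed in all, 6.46% higher and 8.6% lower. Groups did not overlap in 11 probe sets in males (19.6% of all) and 11 in females (19.9%). These counts follow from how the genes were chosen, and nothing is read from them. The median change of the 27 was -0.18 in males and -0.32 in females, against -0.03 in each sex over all probe sets. After median centring, 1246 probe sets passed as higher and 1031 as lower in males, against 1095 and 1327 as deposited, and 1324 and 733 in females, against 877 and 1168, with the median change over all probe sets at 0.02 and 0.08. The counts of the 27 did not move with it. With the Gapdh ratio as a covariate 2 of the 27 passed in males and 6 in females, out of 398 and 498 over all probe sets. With the 18S signal it was 5 and 9, out of 997 and 1528. The changes themselves moved by unequal amounts. With the Gapdh covariate, the male change of 1450821_at of Kat2b was -2.35 against -2.47 and of 1418470_at of Yes1 -2.55 against -2.38. That of 1448607_at of Nampt was -1.70 against -1.75, of 1453988_a_at of Ide -1.44 against -1.50 and of 1434469_at of Otud4 -1.70 against -1.61. That of 1416162_at of Rad21 was -1.85 against -2.50 and of 1435709_at of Ssr4 -1.05 against -0.24. In females the change of Dab2 1420498_a_at was -0.33 against -0.61. With the 18S covariate the male changes of the same sets were -1.85 (Kat2b), -2.19 (Yes1), -1.68 (Nampt), -0.85 (Ide), -1.58 (Otud4), -1.72 (Rad21) and 0.28 (Ssr4).

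**Figure D3:**
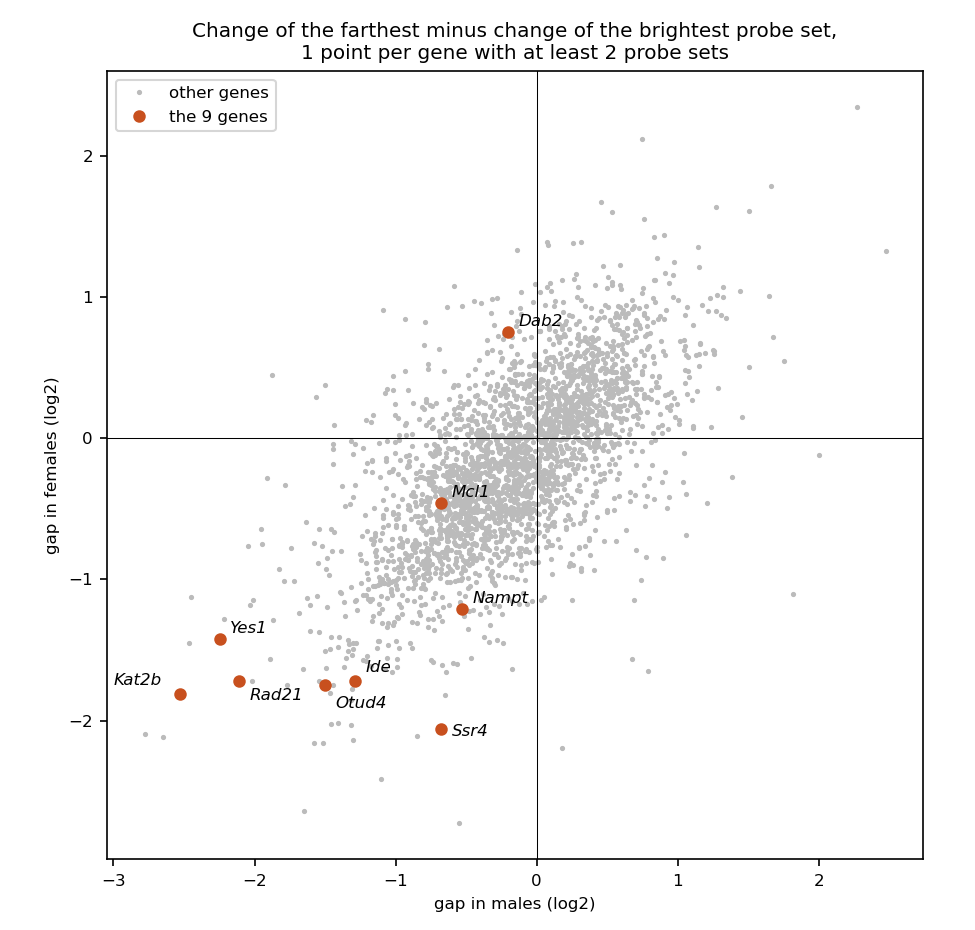
Gap (log2 change of the farthest minus that of the brightest probe set) in females against males for all 2834 genes with at least 2 probe sets above the limit, with the 9 genes named. Kat2b, Rad21, Yes1, Otud4 and Ide lie in the lower left, and Dab2 (-0.20, 0.76) and Mcl1 (-0.68, -0.46) near the centre.

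Wide gaps were not particular to these genes. Among the 2834 genes, 207 (7.30%) had a mean gap of at least 1 in size, and in 175 of them the farthest set was the lower one after TAC, against 32 in which it was the higher. The 9 genes ranked 4 (Kat2b), 7 (Rad21), 12 (Yes1), 27 (Otud4), 37 (Ide), 65 (Ssr4), 308 (Nampt), 810 (Mcl1) and 1796 (Dab2) by that size, an order that rests in part on TAC signals under the limit. Among genes whose pair comes from 1 sequence record, 8.11% of 1221 had such a gap, and among those from different records, 6.70% of 1105. The share also varied with signal. It was 10.3% of 764 genes with a farthest set of mean signal under 200, and 2.22% of 225 from 1600 up. Where the farthest set was at least 4-fold dimmer than the brightest it was 19.2% of 480, 86 lower and 6 higher. The farthest sets of Kat2b, Yes1, Ide, Ssr4 and Nampt had means under 200. The ratio of the pair did not overlap between TAC and sham in 4 of the 9 genes in males (18.8% of all pairs) and in 7 in females (23.1%). The place of each probe set along its transcript was not used here, and the part of transcript ends, isoforms or RNA quality in the gaps was not tested. The Gapdh ratio did not overlap between TAC and sham in either sex, so fits with it cannot tell RNA quality from the operation.

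Whether 2 probe sets of a gene followed each other from animal to animal within groups was looked at separately. How far the spread within groups entered the choice of the genes is not known. The farthest sets of Kat2b, Nampt, Yes1, Ide and Ssr4 had 8, 8, 7, 7 and 5 of 8 TAC arrays under the signal limit. For these genes r rests in part on values under that limit, which depend on the pseudocount. It therefore cannot decide the question, and nothing is read from it. After the group means were removed, Pearson's r between the brightest and the farthest set over the 16 arrays was 0.59 for Otud4 (Spearman's rho 0.59) and 0.53 for Kat2b (rho 0.47). It was 0.23 for Nampt, 0.19 for Ssr4, 0.18 for Yes1, 0.11 for Mcl1, 0.01 for Ide, -0.04 for Dab2 and -0.22 for Rad21, with rho of 0.20, -0.02, 0.02, 0.10, 0.12, -0.08 and -0.16. None of the 9 passed a permutation test within groups, with p from 0.0942 to 0.972 for r (adjusted over the 9 genes, 0.502 to 0.972) and from 0.0839 to 0.962 for rho (adjusted 0.499 to 0.962). Without the 2 arrays farthest from the median, r was 0.49 for Otud4, 0.59 for Kat2b, 0.09 for Nampt, 0.14 for Ssr4, 0.18 for Yes1, -0.10 for Mcl1, -0.04 for Ide, -0.16 for Dab2 and -0.16 for Rad21. The median over the 9 pairs was 0.18, and that over all 2834 pairs was 0.10, with quartiles of -0.13 and 0.32. Weak covariation within groups was thus common to such pairs of brightest and farthest sets, which were picked for unlike changes after TAC. Otud4 stood at the 94.1 percentile of these pairs, though its r did not pass the test.

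The sham arrays of the 2 sexes also enter the changes that chose the genes, so their comparison is given as a description. Of the 18 probe sets of Rad21, Kat2b, Yes1, Otud4, Ide, Ssr4 and Nampt, 0 passed limma's threshold for female against male shams, where 0.309% of all probe sets passed. An unadjusted limma p under 0.05 was found for 1 of the 18, against 1424 of the 13576 probe sets tested. The widest difference was 1.33 ± 0.52 for 1435709_at of Ssr4, higher in the same female shams from which its change after TAC is taken. Groups did not overlap in 1 of the 18, 1450821_at of Kat2b, which was higher in males (7.09% of all probe sets did not overlap).

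In Dab2 and Mcl1 single probe sets stood apart between the sexes in shams, and these values, which probably chose the genes, are a description. Dab2 1420498_a_at was higher in female shams by 0.76 ± 0.15, while 1423805_at and 1430604_a_at of the same gene differed by -0.04 and -0.17. Mcl1 1456243_x_at had 3223.7, 3132.8, 2891.9 and 3077.2 in male shams and 5533.7, 5804.3, 4390.3 and 4159.9 in female shams. Its difference of 0.67 ± 0.13 was not shared in size by the other 5 sets, which lay between -0.15 and 0.28. After TAC it had 3923.2, 3391.7, 4020.2 and 4180.1 in males and 5309.4, 4087.3, 4596.2 and 6139.8 in females. With the 18S covariate the sham differences were 0.79 for the Dab2 set and 0.69 for the Mcl1 set, and over all alternatives they lay between 0.69 and 0.85 and between 0.59 and 0.75.

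**Figure D4:**
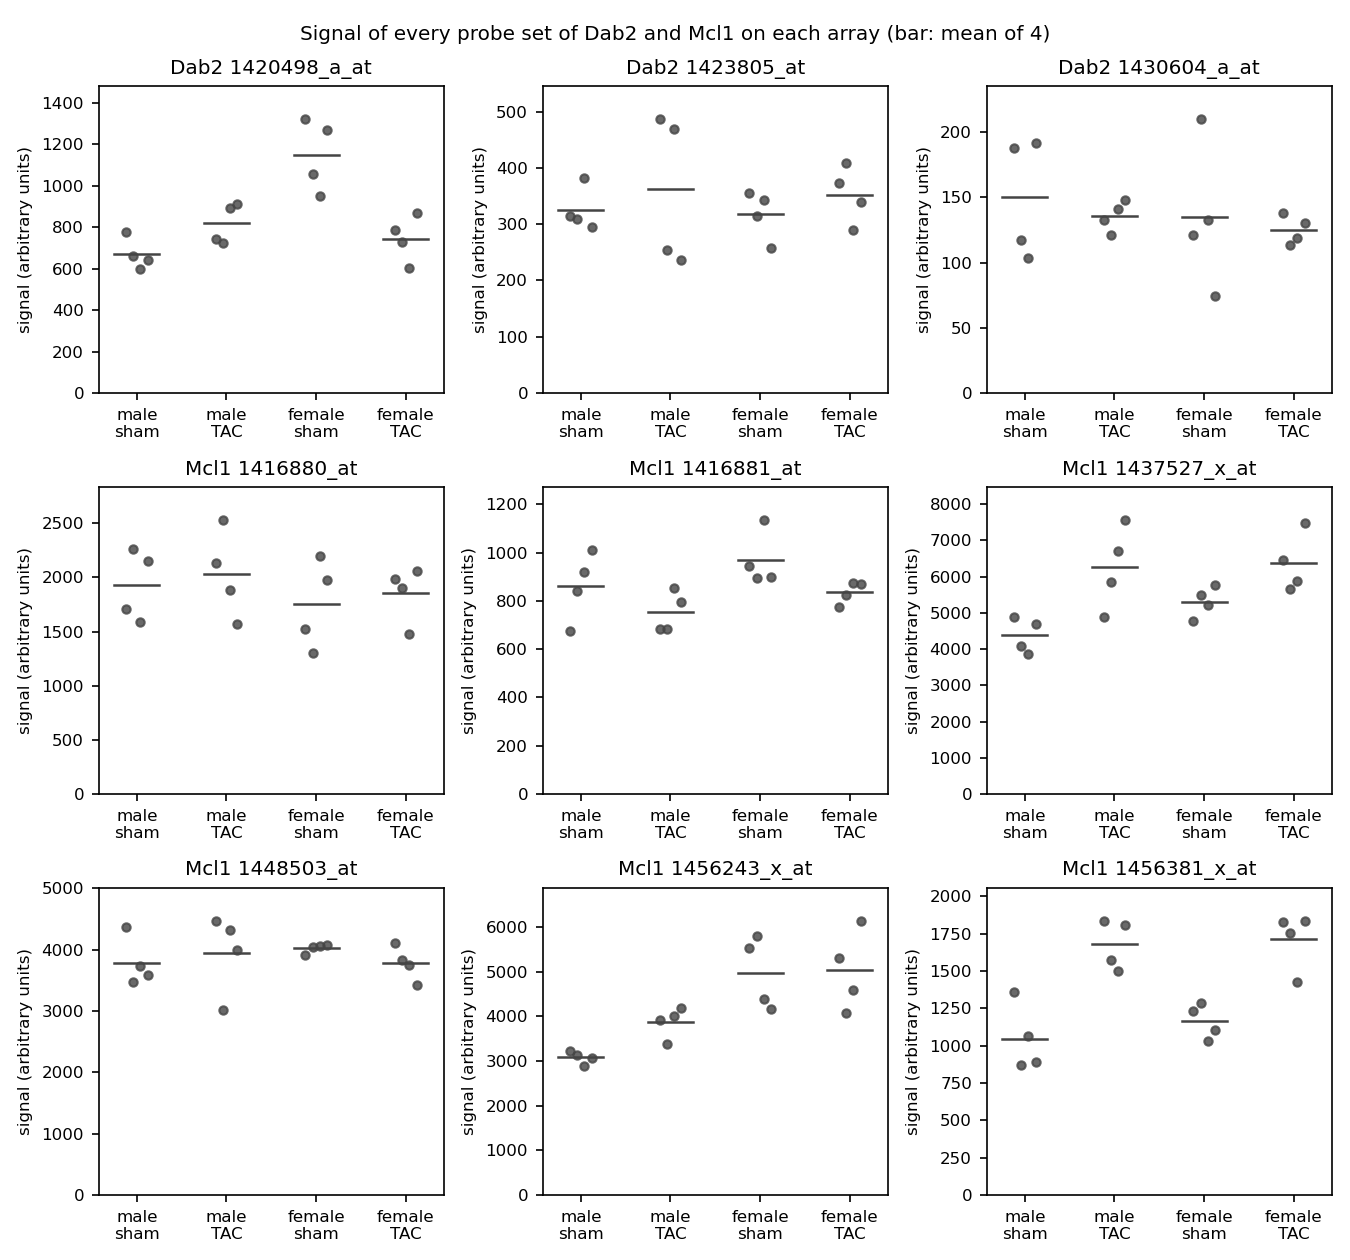
Signal of the 3 Dab2 and the 6 Mcl1 probe sets on all 16 arrays, by group. The female shams of Dab2 1420498_a_at lie between 949 and 1323.6, above the other 3 groups, and Mcl1 1456243_x_at is 2891.9 to 3223.7 in male shams against 4159.9 to 5804.3 in female shams.

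The probe set of another gene most like each set over the 16 arrays was looked up as a description, since arrays of 1 group share their level. The farthest sets were closest to Kpna3 (Kat2b, r = 0.97), Pja2 (Otud4, 0.96), Nr1d2 (Nampt, 0.96), Pkia (Ide, 0.94), Gucy1a1 (Rad21, 0.93), Dgke (Yes1, 0.91), Dock9 (Dab2, 0.88), Polr3e (Ssr4, 0.83) and Sfswap (Mcl1, 0.81). The brightest sets were closest to Abcb10 (Nampt, 0.96), Prpf19 (Ide, 0.91), Gja1 (Mcl1, 0.90), Hsp90b1 (Otud4, 0.87), Naa15 (Ssr4, 0.85), Ahctf1 (Rad21, 0.84), Tceal8 (Dab2, 0.83), Brca1 (Kat2b, 0.82) and Safb2 (Yes1, 0.74). In no gene was the same probe set closest to both. Each match names 1 probe set and need not hold for the whole gene. For example, those of Nr1d2, Pkia and Abcb10 were the farthest sets of their own genes, with mean gaps of -1.76, -1.58 and -0.94. Over all 16 arrays r between the brightest and the farthest set was 0.83 for Nampt and at most 0.60 for the other 8 genes.

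The families and partners of the 9 genes, each by its brightest probe set, gave 10 calls among 60 measured genes in males (16.7%, against 17.8% of all probe sets) and 6 in females (10%, against 15.1%). Of 9 measured cohesin genes, 2 fell in males and 1 in females, of 5 other lysine acetyltransferases none, and of 4 genes of the Src family with its regulator Csk, 1 rose and 1 fell in males. Of 5 OTU deubiquitinases 1 fell in females, and of 5 M16 metallopeptidases 1 fell in each sex. Of 8 genes of the translocon 1 rose and 1 fell in males, of 7 genes of NAD metabolism none passed, of 8 clathrin adaptors and receptors 2 rose in each sex, and of 9 BCL2-family genes 1 fell in each sex. The lists' median changes lay between -0.25 and 0.31 in males and between -0.30 and 0.21 in females, against -0.03 over all probe sets.

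Every call of a related gene named here was lost with the Gapdh ratio as a covariate, but the changes themselves moved by unequal amounts, and the value with that covariate is given for each. That ratio did not overlap between TAC and sham in either sex. With it, calls over all probe sets went from 2422 to 398 in males and from 2045 to 498 in females, so nothing is read from these losses. Stag1, a cohesin subunit that sits beside Rad21, fell in both sexes (-0.53 ± 0.15 in males, limma adjusted p = 0.0216, and -0.72 in females, adjusted p = 0.00333), and the Gapdh covariate left -0.52 and -0.71. Its male call was also lost with the 18S covariate and without male sham 2 or 4. Smc3, an arm of the ring, fell in males (-0.83, adjusted p = 0.0176, and -0.34 with Gapdh), a call also lost with 18S and without male TAC 2 or male sham 3. Its female change was -0.52 (adjusted p = 0.148). Neither acetyltransferase with the smallest p passed, Kat7 at -0.25 and -0.30 and Kat6a at -0.27 and -0.31. Blk, a kinase, fell in males (-0.99, adjusted p = 0.0215, and -0.53 with Gapdh), a call also lost with 18S, with the replicate block and without male TAC 2 or male sham 2 or 3. Csk, which inhibits Src-family kinases, rose in males (0.61, adjusted p = 0.0236, and 0.42 with Gapdh), a call also lost with 18S, with the replicate block, with only the 2 groups fitted and without male TAC 4 or male sham 3 or 4. Otud6b, a deubiquitinase, fell in females (-0.48, adjusted p = 0.0168, and -0.62 with Gapdh), a call also lost with 18S, with median centring and without female TAC 2 or female sham 2. Otud5 had 0.28 and -0.22.

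Pitrm1, a mitochondrial peptidase related to Ide, fell in males (-0.66, limma adjusted p = 0.00229, and -0.19 with Gapdh), a call also lost with 18S. In females it fell by 0.43 (adjusted p = 0.0442, and -0.10 with Gapdh), a call lost in 18 of 28 alternatives. Those were both quality covariates, both other scalings, no filter, no intensity trend, only the 2 groups, the replicate block and any 1 of female TAC 2, 3 or 5, male sham 1, 3 or 4 or the female shams left out. Uqcrc1, a core subunit of respiratory complex III, had -0.17 and -0.21. Beside Ssr4, the translocon subunit Sec61b rose in males (0.72, adjusted p = 0.00503, and 0.46 with Gapdh), a call also lost with 18S. Ssr1 fell in males (-0.53, adjusted p = 0.0133, and -0.35 with Gapdh), a call also lost with 18S and without male TAC 2 or male sham 3. Of the NAD genes, Nnmt, which methylates nicotinamide, had 1.13 and 1.18 (adjusted p = 0.0571 and 0.0526), and the deacetylase Sirt1 had -0.41 and -0.57.

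Lrp1, an endocytic receptor, rose in females (1.07, limma adjusted p = 0.00304, and 0.63 with Gapdh). In males it rose by 0.70 (adjusted p = 0.0376, and 0.05 with Gapdh), a call also lost with 18S, no filter, no intensity trend and without any 1 of male TAC 2 or 5 or male sham 1, 3 or 4. Clta, a clathrin light chain, rose by 0.46 in males (adjusted p = 0.0315, and 0.34 with Gapdh), a call also lost with 18S, no intensity trend, only the 2 groups, the replicate block and without any 1 of male TAC 1 or 5 or male sham 2, 3 or 4. It rose by 0.47 in females (adjusted p = 0.0293, and 0.40 with Gapdh), a call also lost with 18S, no intensity trend, the replicate block and without any 1 of female TAC 2, 3 or 5 or female sham 1, 3 or 4. The gap of the other Clta probe set to this one was -0.69 in females and -0.25 in males, so the rises were not shared in size. Bcl2l11, the pro-apoptotic partner bound by Mcl1, fell in males (-0.54, adjusted p = 0.0205, and -0.53 with Gapdh), a call also lost with 18S and without male TAC 2 or male sham 2. In females it fell by 0.81 (adjusted p = 0.00135, and -0.81 with Gapdh). These values are from the brightest of its 4 probe sets above the limit. The gap of its farthest set to the brightest was 0.58 in females and 0.12 in males, so the female fall was not shared in size. Bok, another member of the family, had 0.92 and 0.34.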

How the data were processed

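Per probe set, the deposited value is the authors' signal intensity, computed with GCOS per the submitters' processing notes, with version and settings not given in the sources used here. The intensities were linear and globally scaled: the mean signal after trimming 2% from each end was 500.21 to 500.25 on all 16 arrays. Here 64 control probe sets and the dimmest 40% of the rest were left out, signals were taken as log2(signal + 16), and 4 group means were fitted with limma 3.58.1 in R 4.3.3 (intensity trend, 2-sided, Benjamini-Hochberg over 13576 probe sets, threshold 0.05). "Rose" and "fell" mean past that threshold. Gaps were fitted the same way on within-array differences. Covariation used 100000 permutations within groups. The model was tested on simulated data. Related genes are the 2 of each list with the smallest p in either sex. The members and lists were chosen with earlier results of these data known. The series text calls the 4 arrays of a group biological replicates hybridised one by one, and their number limits the precision. Detection calls, probe sequences and probe positions were not used here. All 27 probe sets' symbols matched RefSeq (GRCm38.p6). Alternatives were other scalings, pseudocounts, filters, variance settings, a replicate block, quality covariates and each array left out in turn.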

Additional observations from a re-analysis of the deposited data

Results flagged for a closer look

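In 6 of 108 groups of 4 arrays (27 probe sets in 4 groups), 1 array lay far from the other 3 by Dixon's test at the 95% level, and chance gives about 1 in 20. Rad21 1416162_at had 466.8 in male sham 3, against 575.7 to 586.6 on the others. Otud4 1434468_at had 953.8 in male TAC 2, against 1129.9 to 1165. Ide 1423121_at had 441.7 in female sham 1, against 564.5 to 583.7. Ide 1435140_at had 1054.2 in male sham 2, against 662.8 to 713.5. Ssr4 1448524_s_at had 1059.5 in male sham 2, against 1812.9 to 1888.8. Mcl1 1448503_at had 3910.6 in female sham 1, against 4048.8 to 4074.1.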

How the results depend on the processing

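The counts of calls and the median gaps moved as follows under the alternatives run. Over all probe sets, calls of TAC against sham were 398 in males and 498 in females once the Gapdh ratio was a covariate, and 997 in males with the 18S signal, against 2422 and 2045. Of the 27 probe sets, 2 passed in males with the Gapdh covariate and 5 with the 18S covariate, and 5 in each sex without the dimmest 60%, where 17 of the 27 were tested. Female against male shams gave 21 calls without the intensity trend, 88 with only the 2 groups compared, 65 with the replicate block and 26 with the 18S covariate, against 42, and 0 of the 27 passed without the trend or with the 18S covariate. The median gap was 0.68 in males and 0.76 in females without the dimmest 60%, which kept the pairs of 3 genes, and in females 1.13 with a pseudocount of 64 and 1.29 with the 18S covariate. With single arrays left out, calls ranged from 1812 to 2493 in males, 1615 to 2127 in females and 17 to 69 between shams, those of the 27 from 10 to 11, 9 to 10 and 0 to 2, and the median gap from 1.11 to 1.49 and 1.42 to 1.73. The count between shams was 17 without male sham 3 and 69 without male TAC 5, and 0 of the 27 passed without male sham 3, male sham 4 or female sham 1. The cause of these shifts was not tested. Replicate numbers did not pair the arrays: deviations of 6 same-numbered pairs correlated at -0.03 to 0.11, with 1 over 0.1, and with the replicate block 2087 probe sets passed in males and 1757 in females, 10 and 10 of the 27. Dim signals limit the farthest sets, whose TAC arrays were often under the signal limit.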
